A study of Mus musculus with 2 samples.

Results

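The genes described here handle cholesterol inside the cell: its uptake, its storage as ester, its release and its delivery to the mitochondrion. They are 10 genes chosen by name (Scarb1, Soat1, Plin2, Lipe, Lipa, Npc2, Npc1, Stard3, Osbp and Tspo), of 18580 annotated genes with reads in either library. All 10 had reads in both libraries. All transcript models that carry one of these gene names were counted, which gave 170 of 107755 models in replicate 1 and 201 of 137106 in replicate 2. The tissue was adrenal gland of male B6CASTF1/J mice aged 10 days, an F1 hybrid strain with neither a transgene nor a treatment named in the labels. Total RNA was read by long-read RNA sequencing, and the design has 1 group with 2 replicates and no second condition. The labels give both replicates the same donor entry and number the animal of replicate 2 in different ways, so it is unclear whether the libraries come from separate animals. Every test below therefore compares the reads of 2 libraries and measures counting error, which may be technical, and not the spread between animals.

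Adrenal cortex cells make steroids from cholesterol and keep a reserve of it as ester in lipid droplets. Much of this cholesterol enters from high-density lipoprotein through the receptor encoded by Scarb1, which transfers the ester into the cell without taking up the whole particle. Esters are rebuilt by the acyltransferase Soat1, kept in droplets coated by Plin2 and released by the hormone-sensitive lipase Lipe. Particles taken up whole are emptied in lysosomes by the acid lipase Lipa, and Npc2 and Npc1 then pass the freed cholesterol out through the lysosomal membrane. Stard3 and Osbp move cholesterol at contacts between membranes, and Tspo lies in the outer mitochondrial membrane, where steroid synthesis takes up its substrate.

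The choices of exon that separate forms of 4 of these genes are shown first, since the read counts below turn on them. All are read from GENCODE M21 transcripts on mm10, 5′ to 3′ along the transcript. The first pair shows how the Scarb1 message ends its coding region: with exon 12 (capitals, chr5:125281105-125281233, minus strand), which closes on the stop codon, or by a jump from exon 11 straight to the last exon (capitals).
Scarb1, exon 12 included: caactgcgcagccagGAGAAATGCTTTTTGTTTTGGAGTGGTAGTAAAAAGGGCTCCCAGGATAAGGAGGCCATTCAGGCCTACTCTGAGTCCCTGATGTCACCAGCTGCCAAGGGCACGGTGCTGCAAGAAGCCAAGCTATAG
Scarb1, exon 12 skipped: caactgcgcagccagGGTCCTGAAGACACT
The next shows the bases between the outer start codon of Lipe and the inner one (both in capitals, chr7:25388631-25395609, minus strand, with the intron left out), the stretch that the outer start adds to the coding sequence. The first 109 bases lie in the outer first exon, and the last 20 before the inner start codon lie in an exon that other forms share.
Lipe, outer to inner start codon: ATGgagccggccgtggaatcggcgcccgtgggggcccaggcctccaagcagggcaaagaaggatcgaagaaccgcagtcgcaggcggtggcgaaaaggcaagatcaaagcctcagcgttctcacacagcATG
The third pair shows Lipa just before its start codon, with and without 4 bases (capitals, chr19:34524843-34524846, minus strand).
Lipa, with the 4 bases: accactcccgGAAGatgcaactcc
Lipa, without the 4 bases: accactcccgatgcaactcc
The last pair shows Stard3 at the end of exon 4, with the 13 coding bases (capitals, chr11:98375541-98375553, plus strand) that a second, inner splice site leaves out.
Stard3, annotated exon 4: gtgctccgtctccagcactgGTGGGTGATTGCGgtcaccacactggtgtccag
Stard3, shorter exon 4: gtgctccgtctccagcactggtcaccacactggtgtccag

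Replicate 1 held 927914 reads on annotated genes and replicate 2 held 1303420, so 1 read is worth 1.08 and 0.767 CPM (reads per 1000000 gene reads). A gene with 0 reads could still hold up to 3, which is 3.23 CPM in replicate 1 and 2.30 in replicate 2. The labelled tissue was matched by its markers: the 8 adrenal cortex markers all had reads and summed to 31252 and 20138 CPM in the 2 libraries, and the 7 chromaffin markers of the medulla to 11490 and 6075 CPM. Markers of other tissues were present as well. The 7 hepatocyte markers summed to 9293 and 27795 CPM, the 8 brown fat and adipocyte markers to 8728 and 10738 CPM, and the 8 macrophage markers to 168 and 342 CPM, all with reads for every marker. Of 7 kidney markers, Umod, Slc12a1, Slc34a1, Slc22a6 and Kap were at 0 in both libraries. Several of the genes described here are also used by liver, fat and macrophages, and the part of those cells in the levels was not tested. In whole tissue, fewer cells of a type and less RNA per cell cannot be told apart.

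The 10 genes together took 3004 CPM in replicate 1 and 2740 CPM in replicate 2. By mean level (CPM, mean ± SD, n = 2) the order was Scarb1, Plin2, Tspo, Soat1, Npc2, Lipe, Lipa, Stard3, Npc1 and Osbp. The ranges of the 2 libraries did not overlap between Scarb1 and Plin2, between Plin2 and Tspo, between Lipa and Stard3, or between Stard3 and Npc1. The range of Npc2 lay within those of Soat1 and Lipe. The ranges of Tspo, Soat1 and Lipe overlapped, as did those of Lipe and Lipa and those of Npc1 and Osbp, so these neighbours have no order beyond their spread. Each long read is counted once whatever its length, so CPM is not divided by length. Levels nonetheless varied with transcript length when the tested genes were put in 5 groups by length. The median of the mean CPM was 37.4, 44.0, 34.6, 27.3 and 18.8 from the shortest group to the longest. Whether long transcripts were read less or expressed less was not tested. Levels of different genes are therefore set against genes of like transcript length below.

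**Figure D1:**
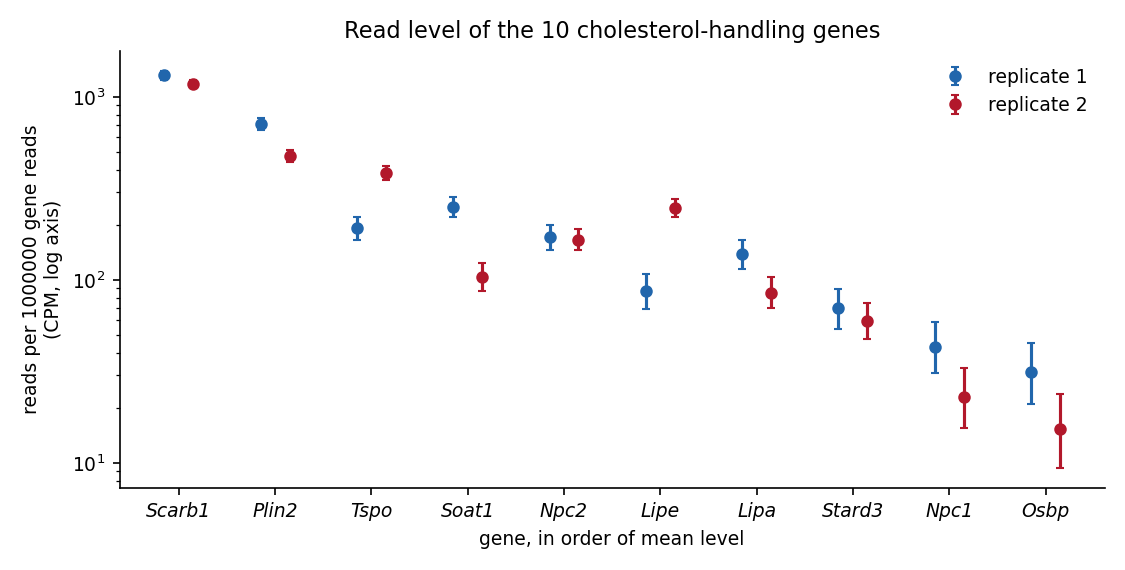
Reads per 1000000 gene reads (CPM, log axis) of the 10 genes in replicate 1 and replicate 2, in order of the mean, with exact Poisson 95% intervals that cover counting error only. Scarb1 stood highest in both libraries (1314 and 1180 CPM), and Tspo and Lipe lay higher in replicate 2, with intervals that do not meet.

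Scarb1 (chr5:125277087-125341094, minus strand), the receptor for high-density lipoprotein, was the most abundant of the 10 genes. It had 1219 reads in replicate 1 and 1538 in replicate 2, or 1314 and 1180 CPM (1247 ± 94.6 CPM). That placed it at rank 72 among the tested genes and at the 99.3 percentile of genes of like transcript length (2521 nt for its main transcript). The 2 libraries lay close together, with replicate 2 at 0.898 times replicate 1.

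Most Scarb1 messages included exon 12. The 13-exon transcript Scarb1-201 held 956 of 1051 annotated full-match reads in replicate 1 and 1082 of 1207 in replicate 2, or 91.0% and 89.6%. The 12-exon transcript Scarb1-202, which skips exon 12, held 79 and 83 reads, or 7.52% (95% Clopper-Pearson interval 6.00 to 9.28%) and 6.88% (5.51 to 8.45%). Exon 12 spans 129 bases, of which 126 are coding and the rest is the stop codon. Without it the reading frame runs 117 coding bases into the last exon, so that the annotated proteins have 509 codons with exon 12 and 506 without. These 2 forms are known as SR-BI and SR-BII and differ in the tail of the receptor inside the cell.

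Counting every model that reads across this exon, full match or not, gave the same picture. Exon 12 was skipped in 91 of 1189 informative reads in replicate 1 (7.65%, interval 6.21 to 9.31%) and in 91 of 1352 in replicate 2 (6.73%, interval 5.45 to 8.20%), a mean of 7.19 ± 0.652%. The intervals of the 2 libraries overlap. A smaller variant left out the first 3 bases of exon 12, at an acceptor that no annotated Scarb1 transcript uses. It was read 7 times among 1098 reads in replicate 1 and 8 times among 1268 in replicate 2, or 0.638% and 0.631%. The bases in capitals below are those left out (chr5:125281231-125281233), and they end in the AG that closes an intron.
Scarb1, start of exon 12: ctgcgcagccagGAGaaatgctttttg

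The other Scarb1 reads mostly began inside the gene. Suffix models, which keep the 3′ end of the annotated chain of introns and lack its first exons, held 118 reads in replicate 1 and 141 in replicate 2 and kept from 2 to 12 exons. Chains with 10 or more reads in each library kept 12 exons (22 and 14 reads), 10 exons (15 and 23), 8 exons (13 and 24), 7 exons (16 and 27), 6 exons (10 and 13) and 4 exons (11 and 11). The most-read unannotated model of replicate 2, with 118 reads there and 0 in replicate 1, was a single-exon model that spans 701 bases inside the last exon (chr5:125277087-125277787). It falls in the class Genomic, which holds models within a gene that are mostly single-exon, and both its ends are annotated transcript ends, so the span need not be the length of the reads. Transcript Scarb1-209, annotated as a retained intron, had 0 of 1051 reads in replicate 1, which allows a share of up to 0.285%, and 23 of 1207 (1.91%) in replicate 2 and lies under the 5% set for naming a form.

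Soat1 (chr1:156424525-156474331, minus strand) makes cholesterol ester from free cholesterol and fatty acid in the endoplasmic reticulum. It had 232 reads in replicate 1 and 135 in replicate 2, or 250 and 104 CPM (177 ± 104 CPM), the 96.6 percentile of genes of like annotated length. Replicate 1 was the high library, and the Poisson intervals (219 to 284 CPM and 86.8 to 123 CPM) do not meet. Its relative Soat2, the ester-forming enzyme of liver and gut, had 7 and 28 reads.

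One form made up nearly all annotated Soat1 reads. Soat1-207, with 16 exons, held 184 of 191 full-match reads in replicate 1 (96.3%) and 82 of 91 in replicate 2 (90.1%). Soat1-202, a retained intron form, held 3 and 5 reads (1.57% and 5.49%). The annotated length of Soat1-207 is 8371 nt, with a last exon of 6591 nt that ends at chr1:156424525. The most-read spliced models outside the annotation ended earlier, at 156428532, 156429095, 156429103 or 156429793, so the annotated length need not be that of the reads. The most-read of these in replicate 1 skipped exon 2 (118 bases), which holds the annotated start codon. Exon 2 was skipped in 8 of 211 informative reads in replicate 1 (3.79%, interval 1.65 to 7.33%). In replicate 2 the count was 0 of 92, which allows a share of up to 3.26%, so a difference was not detectable at this depth. A suffix model of 10 exons was the most-read unannotated Soat1 model of replicate 2 (2 and 9 reads).

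Plin2 (chr4:86648386-86670060, minus strand) coats lipid droplets and is stabilised by them. It was the second most abundant of the 10 genes, with 657 reads in replicate 1 and 621 in replicate 2, or 708 and 476 CPM (592 ± 164 CPM). It stood at the 96.6 percentile of genes of like length (1888 nt) and was higher in replicate 1. Its isoform makeup hardly varied: Plin2-201, with 8 exons, held 580 of 584 full-match reads (99.3%) and 551 of 555 (99.3%).

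The variation of Plin2 lay at its ends. A 9-exon chain, an unannotated combination of annotated splice sites, was its most-read unannotated model in both libraries (19 and 16 reads). Its last intron leaves from inside the usual last exon, before the annotated stop codon (chr4:86657033-86657035), and joins a far last exon at chr4:86648386-86648579 that the annotation gives to Plin2-208. This intron was used in 22 of 644 informative reads in replicate 1 (3.42%, interval 2.15 to 5.13%) and in 16 of 598 in replicate 2 (2.68%, interval 1.54 to 4.31%). An inner first exon, annotated in Plin2-207, took 16 of 632 reads (2.53%, interval 1.45 to 4.08%) and 5 of 587 (0.852%, interval 0.277 to 1.98%). The intervals overlap for both choices.

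Lipe (chr7:25379527-25398710, minus strand), the hormone-sensitive lipase, hydrolyses cholesterol ester and diacylglycerol. It had 81 reads in replicate 1 and 322 in replicate 2, or 87.3 and 247 CPM (167 ± 113 CPM), the widest spread for its level among the 10 genes. Replicate 2 was 2.82-fold higher. The reads that match an annotated form in full numbered 66 and 93, and on these alone the log2 ratio was 0.11 (adjusted p = 0.757, Fisher's exact test) against 1.49 on all reads. Of the Lipe reads of replicate 2, 138 lay on a single-exon Genomic model at chr7:25379645-25379661, a span of 17 bases at the 3′ end of the gene, against 1 read in replicate 1. Both its ends are annotated transcript ends, so the span need not be the length of the reads. Without Genomic models the log2 ratio was 0.74 (adjusted p = 5.33e-04, Fisher's exact test).

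Lipe was read from 3 annotated starts, and the intervals of their shares overlap between the libraries. Lipe-202, from the middle start at chr7:25390106, held 39 of 66 full-match reads in replicate 1 (59.1%, interval 46.3 to 71.0%) and 51 of 93 in replicate 2 (54.8%, interval 44.2 to 65.2%). Lipe-201, from the outer start at 25396379, held 16 and 26 reads (24.2%, interval 14.5 to 36.4%, and 28.0%, interval 19.1 to 38.2%). Lipe-208, whose first exon begins at 25389224, held 10 and 16 reads (15.2% and 17.2%). The outer start adds its own start codon at 25395607 to 25395609, in frame with the inner one at 25388631 to 25388633. The sequence between them, shown above, adds 129 bases or 43 codons, giving 802 codons for Lipe-201 against 759 for Lipe-202 and Lipe-208. Counted by the intron alone, the outer start took 18 of 59 reads that show the outer or the middle start in replicate 1 (30.5%) and 27 of 82 in replicate 2 (32.9%). In replicate 1 no unannotated Lipe model had over 2 reads, and 3 were tied there: an 11-exon chain from the middle start (2 and 1 reads), a 3-exon suffix (2 and 13) and a 5-exon suffix (2 and 10).

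The promoter windows of these starts differed in their letters. In the RefSeq table (GRCm38.p6) the 250 bases before the outer Lipe start (chr7:25395988-25396237, minus strand, which lies within the GENCODE first exon of Lipe-201) held 6 matches of the GC box GGGCGG and 1 of the E-box CACGTG, on either strand. The 250 bases before the middle start (chr7:25390113-25390362) held neither. Among 32851 windows of this length, 32.7% held GGGCGG and 6.02% held CACGTG. Of the 10 genes 7 were searched, in 8 windows. Scarb1 and Tspo had no window, and chr18, which holds Npc1, was left out. GGGCGG was found at Lipe, Npc2, Osbp and Stard3, CACGTG only at Lipe, TATAAA only at Lipa (12.4% of all windows), and AAGGTCA, the core of the site bound by steroidogenic factor 1, at none of the 8 (4.08% of all windows).

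**Figure D2:**
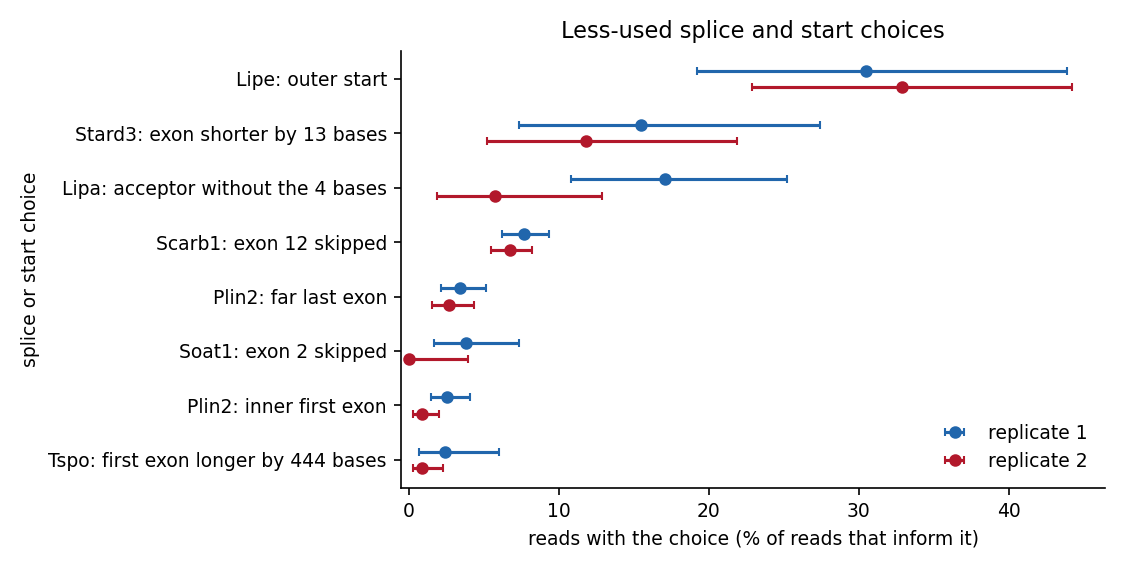
Share of reads with each less-used splice or start choice, in percent of the reads that inform it, for replicate 1 and replicate 2, with 95% Clopper-Pearson intervals. The outer Lipe start (30.5% and 32.9%) and the Scarb1 exon 12 skip (7.65% and 6.73%) lay at like shares in both libraries, while the Lipa acceptor without the 4 bases fell at 17.1% and 5.75%.

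In the lysosome, Lipa (chr19:34492318-34527474, minus strand) frees cholesterol from the esters of particles taken up whole. It had 128 reads in replicate 1 and 111 in replicate 2, or 138 and 85.2 CPM (112 ± 37.3 CPM), the 81.2 percentile of genes of like length. Replicate 1 was higher, and the Poisson intervals (115 to 164 CPM and 70.1 to 103 CPM) do not meet. Lipa-201 and Lipa-202 differ by the 4 bases shown above, which lie directly before the start codon, and share their coding sequence of 397 codons. Lipa-201 held 93 of 114 full-match reads in replicate 1 (81.6%) and 79 of 84 in replicate 2 (94.0%). Lipa-202 held 20 and 5 reads (17.5%, interval 11.1 to 25.8%, and 5.95%, interval 1.96 to 13.3%). This difference did not pass over all genes tested (unadjusted p = 0.0107, adjusted p = 0.235, Fisher's exact test), and the intervals overlap. Single-exon models in the last exon were its most-read unannotated models. The one of replicate 1, with 6 reads, spans a piece of that exon, and the one of replicate 2, with 14 reads, spans all of it.

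Npc2 (chr12:84754562-84773152, minus strand), the small soluble carrier that takes up free cholesterol in the lysosome, had like levels in both libraries. It had 159 reads in replicate 1 and 217 in replicate 2, or 171 and 166 CPM (169 ± 3.44 CPM), the 93.6 percentile for its annotated length. Its log2 ratio between the libraries was 0.20 with TMM scaling (introduced below) and 0.45 against genes of like annotated length (adjusted p = 0.0176, exact binomial test). That length is 3299 nt, with a last exon of 2651 nt that ends at chr12:84754562. A 3-exon suffix model of replicate 2 (9 reads) ended earlier, at 84756492. The annotated length need not be that of the reads, and both values set by length rest on it. All full-match Npc2 reads (156 and 194) lay on the 4-exon Npc2-201. In replicate 2, 13 further reads lay on a single-base Genomic model at chr12:84756492, an annotated transcript end, and in replicate 1 the most-read unannotated model was a Genomic one with 3 reads.

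Npc1 (chr18:12189692-12236400, minus strand), the large membrane protein that receives cholesterol from Npc2, was much less abundant. It had 40 reads in replicate 1 and 30 in replicate 2, or 43.1 and 23.0 CPM (33.1 ± 14.2 CPM), the 69.9 percentile for its length. Few reads spanned the message. The 25-exon Npc1-201, of 5224 nt, held 4 reads in replicate 1 and 1 in replicate 2. Of the 5 full-match reads of replicate 1 and the 6 of replicate 2, the rest lay on the retained intron forms Npc1-206 (1 and 4 reads) and Npc1-202 (0 and 1). Npc1-206, of 2219 nt, thus tied with Npc1-201 over both libraries. The length of Npc1-201 was used for the gene, and all Npc1 values set by length rest on that choice. Suffix models held 30 of 40 and 18 of 30 reads. An 8-exon suffix that begins at chr18:12198149 took 22 reads in replicate 1 and 4 in replicate 2, and a 16-exon suffix 0 and 4. The gene Rmc1, with 87 and 73 reads, overlaps the 3′ end of Npc1 on the opposite strand, and whether reads were counted by strand is not given in the sources used here.

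Stard3 (chr11:98358368-98381112, plus strand), which moves cholesterol at late endosomes, had 65 reads in replicate 1 and 78 in replicate 2, or 70.0 and 59.8 CPM (64.9 ± 7.22 CPM), the 61.5 percentile for its length. The Poisson intervals of the libraries overlap. All full-match reads (42 and 53) lay on the 15-exon Stard3-201. A second 15-exon chain with the shorter exon 4 was the most-read unannotated model in both libraries (7 and 6 reads). Counted by the intron, the inner splice site was used in 9 of 58 reads in replicate 1 (15.5%, interval 7.35 to 27.4%) and in 8 of 68 in replicate 2 (11.8%, interval 5.22 to 21.9%). The annotation holds this site in Stard3-205 and Stard3-206 but not in this chain. The 13 bases it leaves out are coding and are not a multiple of a codon.

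Osbp (chr19:11965941-11994112, plus strand), a sterol carrier between the endoplasmic reticulum and the Golgi, was the least abundant of the 10 genes. It had 29 reads in replicate 1 and 20 in replicate 2, or 31.3 and 15.3 CPM (23.3 ± 11.2 CPM), the 58.8 percentile for its length. Its single annotated form, Osbp-201 of 14 exons and 4488 nt, held 22 and 11 reads. No unannotated Osbp model had over 2 reads in either library. Those tied at 2 included a 14-exon chain (2 and 0 reads) and a 3-exon suffix (1 and 2).

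Tspo (chr15:83563592-83574203, plus strand), the outer mitochondrial membrane protein long studied for a role in cholesterol import, was the third by level. It had 177 reads in replicate 1 and 499 in replicate 2, or 191 and 383 CPM (287 ± 136 CPM), and replicate 2 was 2.00-fold higher. Its transcript is the shortest of the 10 (837 nt), and its mean level lay at the 91.3 percentile of the shortest of the 5 length groups. With the genes in 20 finer length groups, a log2 ratio of 0.72 was expected from the group of Tspo. Set against it the Tspo log2 ratio of 1.00 became 0.28 (adjusted p = 0.0945, exact binomial test). All full-match reads (161 and 444) lay on the 4-exon Tspo-201. A first exon longer by 444 bases, annotated in Tspo-202, was read 4 times in each library, or 2.40% and 0.881% of informative reads. The unannotated models with the most reads in replicate 1 were a 3-exon suffix (4 and 9 reads) and, tied with it, a 4-exon combination of annotated splice sites (4 and 4). In replicate 2 they were a single-exon model that spans the last exon (2 and 16 reads) and a 2-exon suffix (2 and 14). Mcat, with 115 and 156 reads, overlaps the first exon of Tspo on the opposite strand.

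Between the libraries, 8 of the 10 genes had an adjusted p under 0.05, against 35.1% of all genes tested. Each gene's reads were set against the reads of the other genes in both libraries by Fisher's exact test, adjusted by Benjamini-Hochberg over the 11650 genes with 10 or more reads. Lipe and Tspo were higher in replicate 2, where 13.0% of all genes were. Scarb1, Soat1, Plin2, Lipa, Npc1 and Osbp were lower in replicate 2, where 22.2% of all genes were. Npc2 (adjusted p = 0.892, Fisher's exact test) and Stard3 (adjusted p = 0.515, Fisher's exact test) did not pass. The median log2 ratio of the 10 genes was -0.40, beside -0.25 over all genes tested. Deeper genes passed more often: of all genes with 50 or more reads 52.8% passed, and of the 9 among these 10 that had as many, 7 did.

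Soat1 had the lowest ratio of the 10 genes, with replicate 2 at 0.415 times replicate 1 (log2 ratio -1.27, adjusted p = 2.99e-15, Fisher's exact test). It stayed lower under every scaling and filter tried, from -0.97 against genes of like length to -1.44 on full-match reads. Plin2 was at 0.673 times (log2 ratio -0.57, adjusted p = 3.07e-11, Fisher's exact test) and also kept its direction, from -0.24 against genes of like length to the value on all reads, though it does not reach 2-fold. Lipa was at 0.618 times (adjusted p = 0.00121, Fisher's exact test), Npc1 at 0.536 times (adjusted p = 0.0326, Fisher's exact test) and Osbp at 0.495 times (adjusted p = 0.0407, Fisher's exact test). These 3 calls were lost with TMM scaling, which adds 0.24 to every log2 ratio (adjusted p = 0.0554, 0.176 and 0.160, exact binomial test). On full-match reads alone, 5 and 6, the Npc1 log2 ratio was -0.14 and did not pass. Scarb1 changed sign with TMM scaling, from -0.16 (adjusted p = 0.0186, Fisher's exact test) to 0.09 (adjusted p = 0.246, exact binomial test). Against genes of like length the Scarb1 ratio was 0.23 (adjusted p = 2.77e-04, exact binomial test). With TMM scaling 4 of the 10 genes passed (28.5% of all genes), 2 higher and 2 lower (16.7% and 11.8%). With DESeq2 size factors 4 passed (28.4% of all genes), against genes of like length 5 (23.1%), and with a minimum of 2-fold 4 (20.1%). In the first count, on all reads, 22.2% of all genes were lower in replicate 2 and 13.0% higher. Of the cortex markers 5 of 8 were lower in replicate 2 and 1 higher, of the medulla markers 5 of 7 were lower and 0 higher, and of the hepatocyte markers 7 of 7 were higher. Their part in these ratios was not tested.

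**Figure D3:**
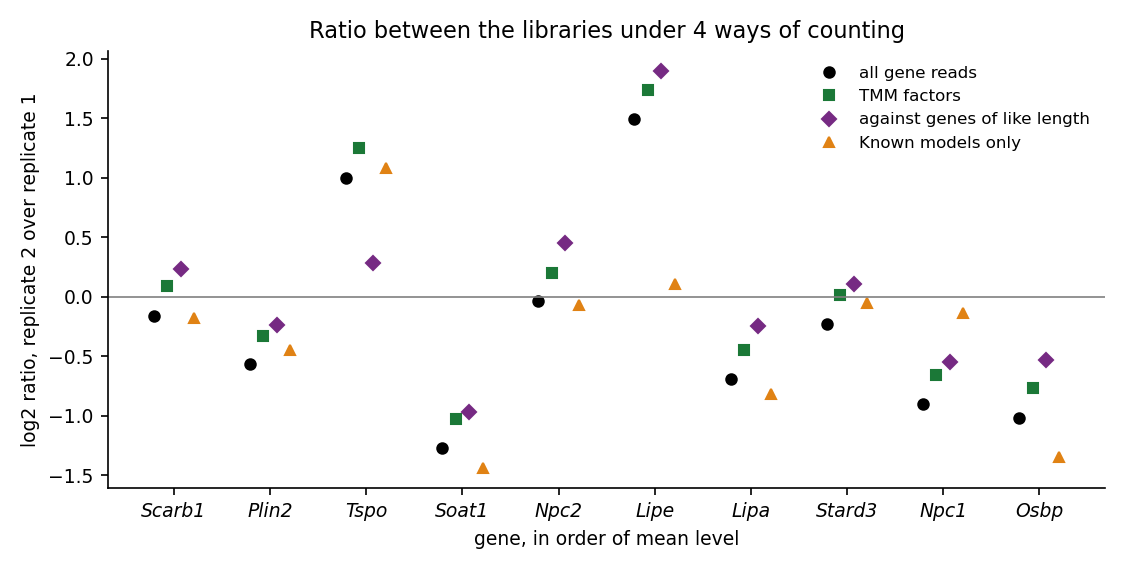
Log2 ratio of replicate 2 over replicate 1 for the 10 genes, counted on all gene reads, with TMM factors, against genes of like transcript length, and on full-match (Known) models only. Soat1, Plin2, Lipa, Npc1 and Osbp lay below 0 in all 4 counts. Lipe was near 0 on Known models only (0.11), and Scarb1 lay below 0 in 2 counts and above it in the others.

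The use of the main isoform could be tested in 5 of the 10 genes. None passed (0 of 5, Fisher's exact test, lowest adjusted p = 0.235), and 1, Lipa, had an unadjusted p under 0.05. Among all 3040 genes with enough reads 2.04% passed. With all reads of the gene as denominator, in place of full-match reads, 3 of 5 passed (20.4% of all genes). The share of the main isoform in replicate 2 minus that in replicate 1 was -1.32 percentage points for Scarb1, -6.23 for Soat1, -4.25 for Lipe, 12.5 for Lipa and -0.0358 for Plin2.

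The full-match share differed between the libraries in 5 of the 10 genes at an adjusted p under 0.05 (Fisher's exact test), against 20.3% of the 6342 genes tested. All 5 were lower in replicate 2, where 19.7% of all genes were, and 0 were higher (0.568%). At an unadjusted p under 0.05 the same 5 passed. The widest difference was that of Lipe, at 81.5% in replicate 1 (interval 71.3 to 89.2%) and 28.9% in replicate 2 (interval 24.0 to 34.2%, adjusted p = 4.47e-16, Fisher's exact test). Scarb1 was at 86.2% and 78.5%, Soat1 at 82.3% and 67.4%, Npc2 at 98.1% and 89.4%, and Lipa at 89.1% and 75.7%. Plin2 (88.9% and 89.4%), Tspo (91.0% and 89.0%), Stard3 (64.6% and 67.9%), Osbp (75.9% and 55.0%) and Npc1 (12.5% and 20.0%) did not pass. Without Genomic models 2 of 9 tested genes passed (13.5% of all genes), and with ISM models (below) counted as matches 2 passed (10.2%). Over the 10 genes 85.8% and 76.7% of reads were full matches, beside 79.8% and 73.9% over all gene reads.

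The reads outside the full matches were of unlike kinds. Incomplete splice matches (ISM), which keep part of an annotated chain of introns, held 220 of 2787 reads in replicate 1 and 382 of 3571 in replicate 2, most of them suffix models (188 and 313). Genomic models held 30 and 305 reads, of which Lipe and Scarb1 supplied 142 and 127 in replicate 2. Combinations of annotated splice sites (NIC) held 79 and 70 reads, and models with an unannotated splice site (NNC) 66 and 76. Each held fewer reads than ISM models in both libraries. Beside Genomic models, each held more in replicate 1 and fewer in replicate 2. Of 270 distinct unannotated models, 56 were read in both libraries when matched by introns, or by both ends if single-exon. These held 261 of 395 such reads in replicate 1 and 468 of 833 in replicate 2. Npc1 had the lowest full-match share of the 10 genes, at the 8.2 percentile of genes of like length, where the median was 63.0%.

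**Figure D4:**
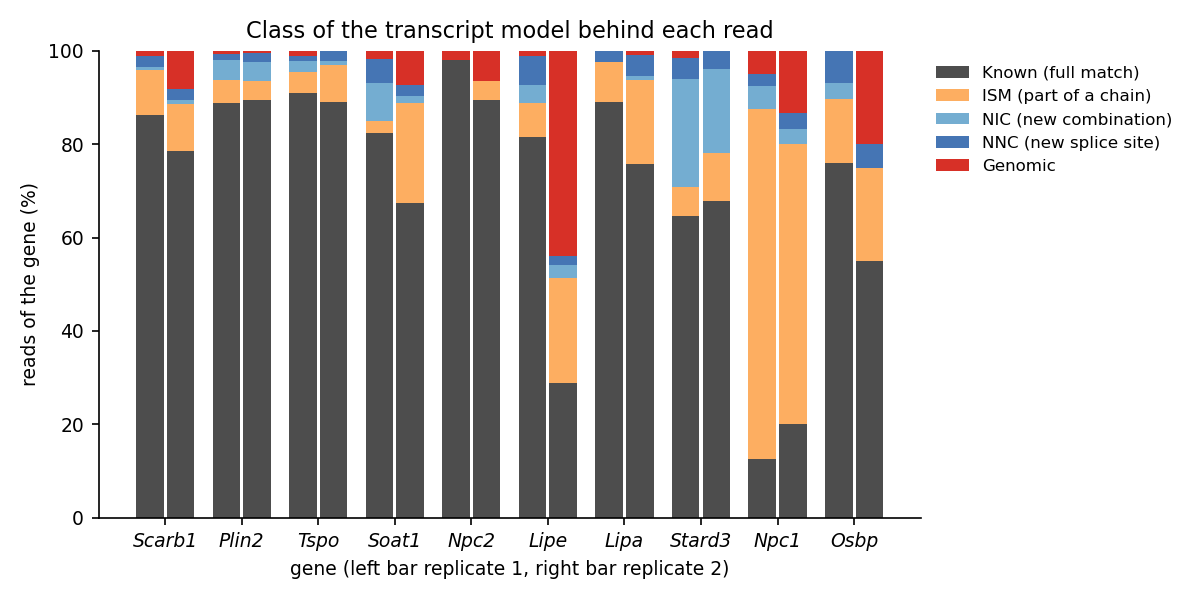
Share of the reads of each gene, in percent, by the class of transcript model, with replicate 1 on the left and replicate 2 on the right of each pair. Full matches are the larger part of most bars, ISM models fill 75.0% and 60.0% of the Npc1 bars, and Genomic models fill 44.1% of the Lipe bar of replicate 2.

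The wider pathway, 64 other genes of cholesterol and lipid droplet handling, had reads for every gene. Of 60 tested, 11 were higher in replicate 2 and 21 lower (13.0% and 22.2% of all genes), with a median log2 ratio of -0.23 beside -0.25 over all genes. The balance of directions moved with the scaling: 13 were higher and 13 lower with TMM factors (16.7% and 11.8% of all genes), and 13 and 12 with DESeq2 size factors. Against genes of like length 13 of 59 were higher and 9 lower (13.2% and 9.96% of all genes). With a minimum of 2-fold 9 of 60 passed, beside 20.1% of all genes. Receptors and uptake had 1 higher and 3 lower of 9. Lrp1, an endocytic receptor, was at 0.471 times (29 and 19 reads, adjusted p = 0.0363, Fisher's exact test). That call was lost with TMM factors (adjusted p = 0.119, exact binomial test), with DESeq2 size factors (adjusted p = 0.155) and against genes of like length (adjusted p = 0.393). The Lrp1 length rests on 3 full-match reads in replicate 1 and 0 in replicate 2. Without Genomic models Lrp1 passed (log2 ratio -1.76, adjusted p = 0.00249, Fisher's exact test).

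Among genes of esterification and lipid droplets 3 of 13 were higher and 3 lower (13.0% and 22.2% of all genes). Cidea, a droplet protein of brown fat, was 1.76-fold higher (1480 and 2605 CPM) and Dgat2, which makes triglyceride, 1.35-fold higher (998 and 1351 CPM), though not on full-match reads (log2 ratio 0.07). Plin1 (500 and 516 CPM) and Cidec (488 and 436 CPM), droplet proteins of fat cells, did not pass in this count. Plin1 passed as higher with TMM factors (log2 ratio 0.29, adjusted p = 0.00457, exact binomial test) and against genes of like length (log2 ratio 0.49). Cidec passed as lower without Genomic models (log2 ratio -0.34, adjusted p = 0.00221, Fisher's exact test) and against genes of like length (log2 ratio -0.89). Among the hydrolases 3 of 6 were higher and 2 lower. G0s2, an inhibitor of the triglyceride lipase Pnpla2, was 4.05-fold higher (83 and 474 reads), and Pnpla2 was at 0.835 times (1045 and 873 CPM). The Pnpla2 call was lost with TMM factors (log2 ratio -0.02, adjusted p = 0.918, exact binomial test). Of the brown fat and adipocyte markers 6 of 8 were higher and 1 lower (13.0% and 22.2% of all genes), and Cidea and Plin1 are on both lists. The part of fat cells in these values was not tested.

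Lysosomal and endosomal genes had 1 higher and 5 lower of 7 (13.0% and 22.2% of all genes), and 1 and 2 with TMM factors (16.7% and 11.8%). Of all genes with 50 or more reads, 18.5% were higher and 34.3% lower. These shares also stand beside the groups below. The protease Ctsd was at 0.813 times (1538 and 1251 CPM) and the membrane protein Lamp1 at 0.649 times (765 and 496 CPM). The Ctsd call was lost with TMM factors (log2 ratio -0.05, adjusted p = 0.494, exact binomial test). Contact site and carrier genes had 0 higher and 6 lower of 15. The scaling moved that count: TMM factors gave 0 higher and 3 lower, and genes of like length gave 1 higher and 2 lower (13.2% and 9.96% of all genes). Star, which delivers cholesterol to the inner mitochondrial membrane, was at 0.680 times (4392 and 2985 CPM), and Gramd1a, a sterol carrier of the endoplasmic reticulum, at 0.388 times (61 and 33 reads). Against genes of like length the Star log2 ratio of -0.56 became -0.07 and did not pass (adjusted p = 0.130, exact binomial test). Partners of Tspo had 2 higher and 1 lower of 5. Dbi, a short acyl-CoA binding protein that is a ligand of Tspo, was 3.33-fold higher (428 and 1426 CPM), and the outer membrane channel Vdac1 2.09-fold higher (125 and 262 CPM). Against genes of like length the Dbi log2 ratio of 1.74 became 0.27 (adjusted p = 0.00512, exact binomial test). Vdac1 had 0 and 140 reads on Genomic models, and without them its log2 ratio of 1.07 became 0.37 and did not pass (adjusted p = 0.0672, Fisher's exact test). On full-match reads the Vdac1 log2 ratio was 0.62 and passed (adjusted p = 0.00285, Fisher's exact test). Against genes of like length it was 1.41 (adjusted p = 1.66e-20, exact binomial test). Of the efflux genes 1 of 5 was higher and 1 lower. Apoe, a lipoprotein component made by liver, macrophages and adrenal cortex, was 3.45-fold higher (3559 and 12262 CPM), beside hepatocyte markers at 2.99-fold, whose part was not tested.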

How the data were processed

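Counts in the deposited tables are raw long reads per transcript model, with no normalization, and the deposited annotations give the exons of each model on mm10 (other unit: bases and positions), named after GENCODE M21 and numbered by TALON per the file headers. The sources used here give no aligner or TALON version. Gene reads are sums over all models of a gene, and CPM divides by reads on annotated genes, without spike-ins (971827 and 1407511 reads in all). Fisher's exact tests compared the 2 libraries over all genes (scipy 1.17.1, Python 3.11.15, minimum 10 reads, or 20 in each library for isoform use and full-match shares), with Benjamini-Hochberg adjustment. With 0.5 reads added, log2 ratios were computed. Alternatives used TMM factors (edgeR 4.0.16: 1.09 and 0.919) and DESeq2 1.42.0 size factors (0.928 and 1.08) with exact binomial tests. Intervals are 95%, exact Poisson or Clopper-Pearson. Like the floor of 3 reads they cover counting error only. PCR copies are not separate molecules, so the intervals may be too narrow even for that error. The gene test was tested on data simulated with counting error and set changes in some genes. Other differences between libraries, such as that with transcript length, were not simulated.

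Genes named: all 10; annotated forms with 5% or more of full-match reads in a library; unannotated models with 10 or more reads in each library or most read in one; of the pathway list, the 10 most abundant and the 4 with the largest ratio each way at 20 CPM or more, of which some are not reported here. Soat2, Scarb1-209, the 3-base variant of Scarb1, the inner first exon of Plin2, the longer first exon of Tspo and the splice and start choices counted by intron were chosen after their values were seen. The genes and lists were chosen with earlier results of these data known.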

Additional observations from a re-analysis of the deposited data

How the results depend on the processing

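Of the 10 genes, 8 differed between the libraries as reported (2 higher and 6 lower in replicate 2). The count was 4 with TMM factors, 4 with DESeq2 size factors and 4 with a minimum of 2-fold (2 higher and 2 lower each), and 5 against genes of like length (3 higher and 2 lower). Over all genes TMM scaling turned 1510 higher and 2581 lower into 1948 and 1376. The count for the pathway list was 9 of 60 with a minimum of 2-fold (20.1% of all genes), against 32 as reported (35.1%). For isoform use it was 3 of 5 with all reads of the gene as denominator, against 0, and for the full-match share 2 without Genomic models and 2 with Known and ISM models together, against 5. The cause was not tested. Signs of log2 ratios changed, in the order TMM, DESeq2 and like length, for Scarb1 (0.09, 0.12, 0.23), Npc2 (0.20, 0.23, 0.45) and Stard3 (0.01, 0.05, 0.11). They also changed for Ctsd (0.04 against like length), Pnpla2 (0.02 with DESeq2, 0.14 against like length), Plin1 (-0.07 on Known models, -0.17 without Genomic ones) and Cidec (0.08 with TMM, 0.11 with DESeq2). In percentage points, main-isoform shares over all reads changed sign for Lipa (-1.5) and Plin2 (0.4), and full-match shares with ISM models added did so for Soat1 (4.0), Npc1 (-7.5), Tspo (1.5) and Plin2 (-0.2). Among 79 recomputed ratios of the 10 genes, 52 kept direction and side of the threshold, 18 kept direction but no longer passed and 9 changed sign. Leaving out a replicate leaves 1 library, so it could be run for levels only. No paired analysis was possible because both libraries belong to 1 group. Genes with few reads, such as Npc1 and Osbp, are limited by depth.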
